A study of Mus musculus with 12 samples.

Results

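Prostaglandins and leukotrienes are local lipid signals that macrophages make from arachidonic acid. The 10 genes described here encode enzymes of that synthesis and an accessory protein of it: Pla2g4a, Ptgs1, Ptgs2, Ptges, Hpgds, Tbxas1, Alox5, Alox5ap, Alox15 and Ltc4s. They were chosen by name, as steps of the pathway, from the 54446 genes of the deposited table. No measured value entered the rule, but the choice was made with earlier results of these data known. RNA was sequenced from mouse bone marrow-derived macrophages (BMDMs), grown from femur and tibia marrow with macrophage colony-stimulating factor (M-CSF). All mice carried floxed Nlrc3 alleles, that is, copies of the innate immune regulator Nlrc3 flanked by recombination sites. The mice named KO (knockout) also carried LysM-Cre, a recombinase driven by the lysozyme M promoter and therefore active in myeloid cells, while the mice named WT had no Cre. The 4 groups of 3 libraries were KO cells given lipopolysaccharide (LPS, a bacterial ligand of Toll-like receptor signalling), KO cells kept in RPMI 1640 medium, WT cells given LPS and WT cells kept in medium, all for 12 h. The labels do not say that the libraries of a group came from separate animals or cultures, so the p-values measure the spread between these libraries, which may be technical. In 3 of the groups it is not technical alone, since by Xist, described below, those groups held libraries of both sexes. In bulk RNA of this kind, fewer cells of a type and less RNA per cell cannot be told apart.

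Cytosolic phospholipase A2 alpha, encoded by Pla2g4a, frees arachidonic acid from membrane lipids. The cyclooxygenases Ptgs1 (widely present) and Ptgs2 (known as inducible by inflammatory signals) turn it into prostaglandin H2, which terminal synthases convert further: Ptges into prostaglandin E2, Hpgds into prostaglandin D2 and Tbxas1 into thromboxane A2. In the other branch, Alox5, aided by the membrane protein Alox5ap, forms leukotriene A4, and Ltc4s joins it to glutathione to give leukotriene C4. Alox15 oxygenates arachidonic acid at other carbons and is known in mouse from resident macrophages and eosinophils.

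The targeted gene, Nlrc3, went against the KO label in the libraries labelled KO LPS, and Nos2 went against the treatment label in both groups labelled KO. Nlrc3 stood at 15.6, 8.29 and 6.04 (counts per 1000000 counts of the library) among libraries labelled KO LPS and 0.996, 0.850 and 0.876 CPM in those labelled KO medium, against 0.796, 4.39 and 1.40 CPM in WT LPS and 9.89, 13.6 and 10.4 CPM in WT medium libraries. Nos2, the inducible nitric oxide synthase that LPS is known to raise, had 0.689 to 5.43 CPM among libraries labelled KO LPS and 1148 to 2717 CPM in those labelled KO medium, against 831 to 2704 CPM in WT LPS and 3.90 to 8.35 CPM in WT medium libraries. The libraries labelled KO LPS thus had low Nos2 with Nlrc3 present, and those labelled KO medium high Nos2 with little Nlrc3. By the edgeR test described below, Nlrc3 was also lower under LPS among WT libraries (log2 difference -1.89 ± 0.53 (SE), adjusted p 0.0268). It was lower in KO medium than in WT medium (-2.83 ± 0.56, 0.00371) and higher in KO LPS than in WT LPS (1.76 ± 0.52, 0.0298). Nlrc3 did not pass between KO medium and WT LPS (-0.94 ± 0.55, 0.950) or between KO LPS and WT medium (-0.12 ± 0.50, 0.981). The cause was not tested, and a genotype effect and a mislabelled treatment cannot be told apart in any comparison that uses a KO label. The comparison of LPS with medium among WT libraries sets no KO library against another, and is therefore described first.

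Library totals ran from 13082947 to 20960505 counts, and a count of 3, used as the floor, came to 0.143 to 0.229 CPM. Macrophage markers (8 of 8 detected) summed to 21231 to 34432 CPM in libraries labelled KO LPS, 10062 to 12947 CPM in those labelled KO medium, 12620 to 19337 CPM in WT LPS and 32183 to 35761 CPM in WT medium libraries. None of 52 marker genes of macrophages and 6 other cell classes was at 0 in all libraries. By summed CPM, KO LPS libraries 2 and 3 stood above the other 10 libraries in 5 of those classes. Markers of mast cells and basophils summed to 142 and 308 CPM there and to at most 30.9 CPM in the other 10, and markers of platelets and their precursors to 575 and 761 CPM, with at most 190 CPM in the other 10. Neutrophil markers summed to 5718 and 6966 CPM in those 2 libraries and at most 4391 CPM elsewhere, eosinophil markers to 84.8 and 85.6 CPM and at most 42.6 CPM elsewhere, and lymphocyte markers to 35.5 and 33.8 CPM and at most 6.70 CPM elsewhere. These sums do not hold for each marker. Prg2 alone made 71.8 and 68.9 CPM of the eosinophil sums, and Epx was also highest there. Siglecf (26.0 CPM) was highest in WT medium library 2 and Ccr3 (26.3 CPM) in WT medium library 3. Of the neutrophil markers, S100a8 (1324 CPM) and Camp (110 CPM) were highest in WT LPS library 3, and Mmp8 (113 CPM) in WT medium library 3. Xist, expressed from the inactive X chromosome, was above 20 CPM in 5 libraries (KO LPS 2 and 3, WT LPS 2, WT medium 1 and 3) and below 1 CPM in the rest, so the sexes were mixed within 3 of the groups.

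The start regions of the genes for the release step, both cyclooxygenases and prostaglandin E synthase are shown, since Pla2g4a and Ptges held their calls under LPS in WT cells in all alternatives and the cyclooxygenases differed in opposite directions. Each sequence holds the 250 bases before the RefSeq start of transcription on the gene's own strand, 5′ to 3′, in build GRCm38.p6, and capitals mark a motif match. The regions are chr1:150099781-150100030 (plus strand) for Ptgs2, chr2:30903298-30903547 (minus strand) for Ptges, chr1:149961291-149961540 (minus strand) for the first of the 2 Pla2g4a starts, and chr2:36230176-36230425 (plus strand) for Ptgs1.
Ptgs2: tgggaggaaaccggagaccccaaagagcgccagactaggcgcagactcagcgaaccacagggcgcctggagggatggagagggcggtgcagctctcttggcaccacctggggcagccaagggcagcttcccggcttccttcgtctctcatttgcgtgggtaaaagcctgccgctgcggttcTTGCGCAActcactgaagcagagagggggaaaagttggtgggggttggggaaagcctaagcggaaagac
Ptges: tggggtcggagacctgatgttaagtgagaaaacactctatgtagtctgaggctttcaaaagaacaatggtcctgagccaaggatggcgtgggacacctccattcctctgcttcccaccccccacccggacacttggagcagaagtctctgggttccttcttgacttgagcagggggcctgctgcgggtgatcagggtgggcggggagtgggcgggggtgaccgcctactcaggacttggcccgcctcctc
Pla2g4a: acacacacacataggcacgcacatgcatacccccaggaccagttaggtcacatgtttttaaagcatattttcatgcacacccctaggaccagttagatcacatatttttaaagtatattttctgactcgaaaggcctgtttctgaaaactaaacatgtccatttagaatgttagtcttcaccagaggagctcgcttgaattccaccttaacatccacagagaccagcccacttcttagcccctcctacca
Ptgs1: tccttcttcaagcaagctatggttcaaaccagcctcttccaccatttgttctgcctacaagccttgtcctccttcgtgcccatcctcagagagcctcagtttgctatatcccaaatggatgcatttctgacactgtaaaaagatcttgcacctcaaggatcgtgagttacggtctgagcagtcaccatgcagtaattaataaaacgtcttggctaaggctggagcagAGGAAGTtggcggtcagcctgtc

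RefSeq promoter entries were at hand for 8 of the 10 genes, and 7 motifs, chosen with the sequences in view, were searched on both strands of the 250 bases before and 50 bases after each start. The motifs, with the share of 32851 promoters that hold each in such a window, were the E-box CACGTG (7.15%), the cyclic AMP response element ACGTCA (CRE, 7.51%), the C/EBP motif TTGCNNAA (10.8%), the NF-kappaB motif of GGGA, any 4 bases and CC (20.7%), the AP-1 motif TGANTCA (7.81%), the ETS motif AGGAAGT (9.35%) and the TATA box TATAAA (13.6%). Ptgs2 held 3 matches: the C/EBP motif 69 to 62 bases before the start, and a CRE at bases 13 to 18 and an E-box at bases 17 to 22 after it, which share bases. Ptgs1 held the ETS motif 23 to 17 bases before its start. The windows of Ptges and of the first Pla2g4a start held none of the 7. Of the others, Hpgds held the C/EBP and ETS motifs, Ltc4s the ETS motif, Tbxas1 the AP-1 motif and TATA box, Alox5 the NF-kappaB motif, and the second Pla2g4a start the ETS motif and TATA box. Such matches describe the letters and are not evidence of binding. The RefSeq starts used for Ptges, Hpgds, Tbxas1 and Ltc4s and for the second Pla2g4a start lie inside the GENCODE M21 genes, so those windows are not at the outermost annotated start. Of the 250 bases before the start, 178 for Hpgds and 84 for Ltc4s are annotated as untranslated or coding sequence. On chromosome 1, Pla2g4a (149829618-149961290, minus strand) and Ptgs2 (150100031-150108227, plus strand; mm10, GENCODE M21) are neighbouring protein-coding genes, 138740 bases apart. The other genes lie elsewhere: Ptgs1 (chr2:36230426-36252272, plus strand), Ptges (chr2:30889471-30929863, minus strand), Hpgds (chr6:65117293-65144908, minus strand), Tbxas1 (chr6:38875404-39084585, plus strand), Alox5 (chr6:116410077-116461178, minus strand), Alox5ap (chr5:149264767-149288153, plus strand), Alox15 (chr11:70344152-70352031, minus strand) and Ltc4s (chr11:50236461-50238616, minus strand).

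In WT macrophages, LPS raised Pla2g4a, Ptgs2 and Ptges and lowered Ptgs1, Hpgds and Alox5ap. With the edgeR quasi-likelihood test over 13773 genes and Benjamini-Hochberg adjustment, 6 of the 10 genes passed an adjusted p of 0.05, where 18.3% of all genes did. The rise of Ptges and of Pla2g4a passed the test under each alternative tried, while the other 4 calls did not. The 3 genes that rose compare with 11.9% of all genes called higher, and the 3 that fell with 6.46% called lower. The median log2 difference was -0.29 over the 10 genes and -0.06 over all genes tested. Scaling by library size alone lowered the all-gene median by a further 0.58, so the log2 differences given here are relative to trimmed-mean (TMM) scaling.

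**Figure D1:**
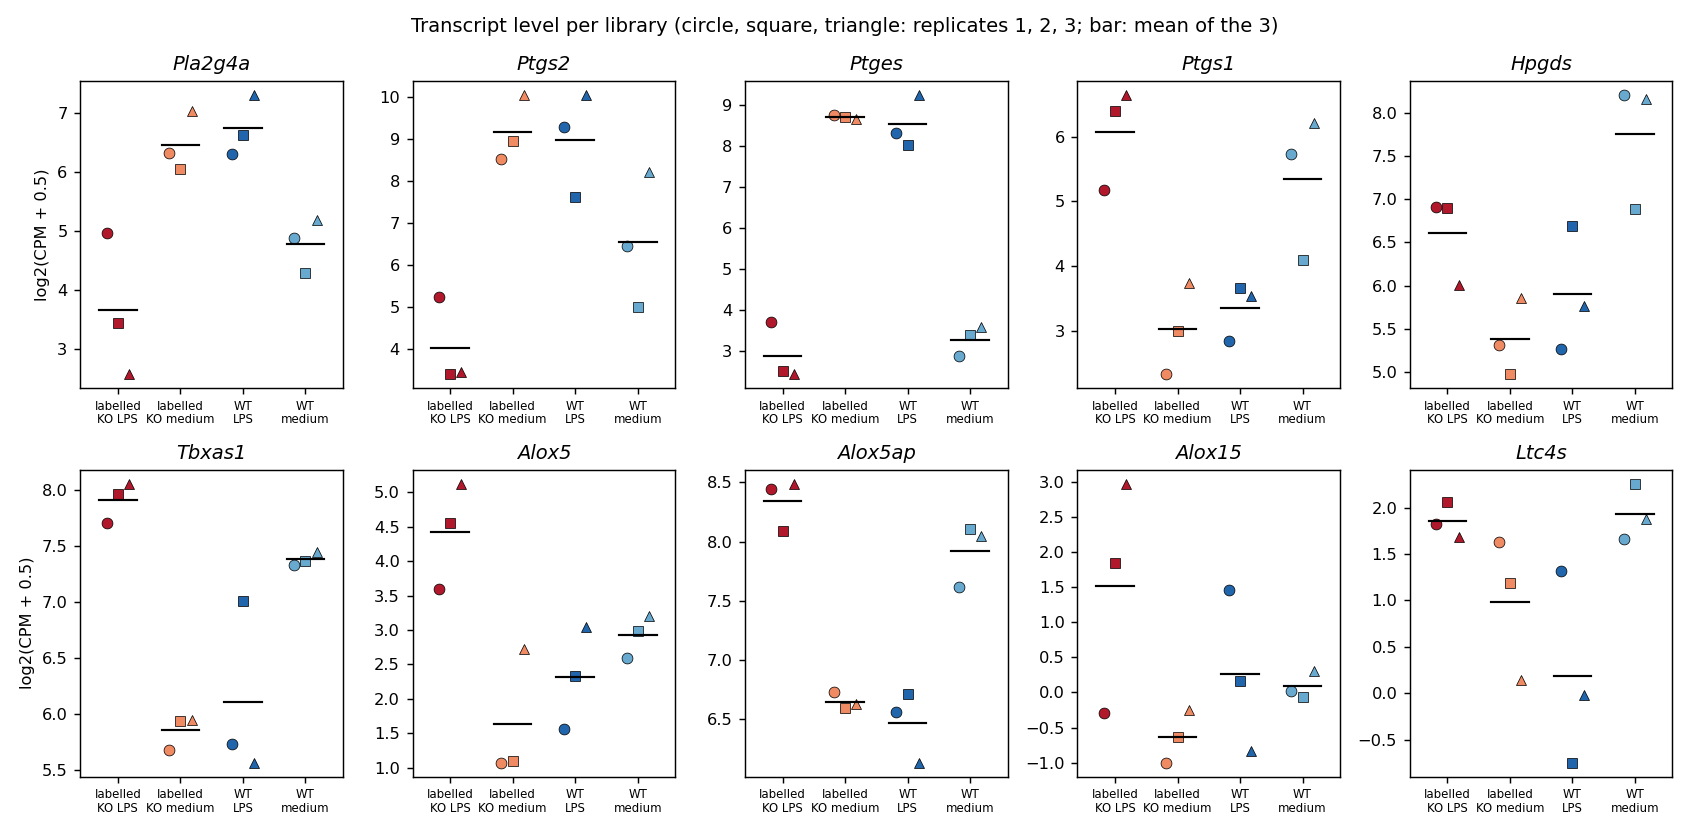
Level of each of the 10 genes as log2(CPM + 0.5), with a point for each of 12 libraries in 4 groups of 3, marker shapes for replicates 1, 2 and 3, and a bar for the mean of the 3. Ptges and Pla2g4a are higher in all WT LPS than in all WT medium libraries, and the libraries labelled KO medium lie in the range of WT LPS for Ptges (408 to 432 CPM).

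Pla2g4a, which releases arachidonic acid, had 79.0, 98.5 and 158 CPM in WT LPS libraries, against 29.1, 19.0 and 35.8 CPM in WT medium libraries. The groups did not overlap. The log2 difference was 2.64 ± 0.56 (SE), a 6.22-fold rise, with an adjusted p of 0.00679 by edgeR. Over the alternatives the adjusted p ran from 2.55e-05 to 0.0382.

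Ptgs2, the inducible cyclooxygenase, had 624, 195 and 1060 CPM in WT LPS libraries, against 86.6, 31.5 and 298 CPM in WT medium libraries. Library 2 of WT LPS lay below library 3 of WT medium, so the groups overlapped. The log2 difference was 2.96 ± 0.86 (SE), or 7.76-fold, at an adjusted p of 0.0332. The call ended without WT LPS library 1 (adjusted p 0.0695) or 3 (0.144), WT medium library 1 (0.119) or 2 (0.0759) or KO medium library 2 (0.0505), which shares the estimate of spread. For Ptgs2 it also ended with scaling by library size alone (0.0708), with a term for Xist (0.145) and in a fit of the WT groups alone (0.0801). Without WT medium library 3 the log2 difference was 4.04, and without WT LPS library 3 it was 2.27.

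Ptgs1, the constitutive cyclooxygenase, had 6.70, 12.2 and 11.1 CPM in WT LPS libraries, against 52.8, 16.5 and 73.8 CPM in WT medium libraries. The groups did not overlap, and library 2 of WT medium was nearest to the LPS level. The log2 difference was -1.61 ± 0.50 (SE), 3.05-fold lower, at an adjusted p of 0.0426. The Ptgs1 call was lost without any one of WT LPS libraries 1, 2 or 3 (0.114, 0.0746 and 0.0923), WT medium libraries 1 or 3 (0.111 and 0.155), KO LPS library 2 (0.0594) or KO medium library 2 (0.0501). It was also lost with a term for Xist (0.0752) and in a fit of the WT groups alone (0.0616). Ptgs2 and Ptgs1 thus moved in opposite directions at the 12 h point.

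Ptges, the microsomal prostaglandin E synthase, had the largest log2 difference of the 10 genes in this comparison. It had 318, 262 and 609 CPM in WT LPS libraries, against 6.82, 10.0 and 11.5 CPM in WT medium libraries, with no overlap. The log2 difference was 6.01 ± 0.55 (SE), a 64.6-fold rise, at an adjusted p of 5.63e-05, and Ptges stood at rank 34 by p among the 13773 genes. Its highest adjusted p over the alternatives was 0.00288.

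Hpgds, the hematopoietic prostaglandin D synthase, had 38.0, 102 and 54.1 CPM in WT LPS libraries, against 294, 118 and 285 CPM in WT medium libraries. The groups did not overlap, although library 2 of each group lay close to the other group. The log2 difference of Hpgds was -1.26 ± 0.38 (SE), 2.40-fold lower, at an adjusted p of 0.0362. This call was lost without WT LPS library 1 (0.121) or 3 (0.136), WT medium library 1 (0.131) or 3 (0.107), KO LPS library 2 (0.0506) or KO medium library 1 (0.0560), and in a fit of the WT groups alone (0.0794). Tbxas1, the thromboxane synthase, had 52.9, 129 and 46.9 CPM in WT LPS libraries, against 160, 165 and 174 CPM in WT medium libraries. The log2 difference of Tbxas1 was -0.61 ± 0.29 (SE) and did not pass the test (adjusted p 0.171). Library 2 of WT LPS lay far above the other 2, and without it the adjusted p was 0.0126; scaling by library size alone gave 0.0292. The first bases of Tbxas1 overlap Hipk2 on the opposite strand, and whether the counting used strand is not given in the sources used here.

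In the lipoxygenase branch, 1 of 4 genes passed the test under LPS in WT cells, where 18.3% of all genes did. Alox5ap, the protein that presents arachidonic acid to 5-lipoxygenase, had 93.9, 104 and 69.6 CPM in WT LPS libraries, against 195, 276 and 264 CPM in WT medium libraries, with no overlap. Its log2 difference was -0.89 ± 0.27 (SE), 1.85-fold lower, at an adjusted p of 0.0370. The Alox5ap call was lost without WT LPS library 2 (0.0629) or 3 (0.133), WT medium library 2 (0.0773) or 3 (0.0780) or KO LPS library 2 (0.0510) or 3 (0.0501), without the filter on low counts (0.0643) and in a fit of the WT groups alone (0.0939).

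Alox5 itself, the 5-lipoxygenase, had 2.46, 4.53 and 7.72 CPM in WT LPS libraries, against 5.53, 7.41 and 8.71 CPM in WT medium libraries. The groups overlapped, and the log2 difference of 0.03 ± 0.56 (SE; 95% interval -1.19 to 1.26) did not pass the test (adjusted p 0.977). Ltc4s, the leukotriene C4 synthase, had 1.99, 0.0954 and 0.486 CPM in WT LPS libraries, against 2.66, 4.28 and 3.17 CPM in WT medium libraries. Its groups did not overlap in these CPM, but the level in WT LPS library 2 was under the floor. The fit also applied TMM factors, of 0.765 for WT LPS library 1 and of 1.35 and 1.46 for WT medium libraries 1 and 3. On that scale the Ltc4s groups overlapped. The log2 difference of -1.33 ± 0.84 (SE) did not pass (adjusted p 0.310). Without WT LPS library 1 the adjusted p was 0.0341. An antisense gene, Gm26542, overlaps Ltc4s and had 0 to 11 counts per library. Alox15 had 34, 13 and 1 counts in WT LPS libraries, against 10, 6 and 12 counts in WT medium libraries. Its log2 difference of 1.44 ± 1.17 (SE) did not pass (adjusted p 0.438), and these counts leave a wide 95% interval of -1.12 to 3.99.

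Ratios within a library show how the transcripts of these enzymes stood to each other. FPKM (fragments per kilobase of gene in a library scaled to 1000000), the authors' value per length, was used for these. The Ptgs2 to Ptgs1 ratio was 79.0, 13.6 and 81.2 in WT LPS libraries, against 1.39, 1.62 and 3.43 in WT medium libraries. Ptges to Hpgds stood at 13.7, 4.18 and 18.4 in WT LPS libraries, against 0.0379, 0.139 and 0.0656 in WT medium libraries. Ptges to Tbxas1 was 13.9, 4.72 and 30.0 in WT LPS libraries, against 0.0983, 0.141 and 0.152 in WT medium libraries. None of these 3 ratios overlapped between the WT groups, and library 2 of WT LPS was the lowest of its group in all 3. Another ratio tested, Alox5ap to Alox5, was 111, 66.7 and 26.0 in WT LPS libraries, against 102, 108 and 87.5 in WT medium libraries, and overlapped (exact two-sided permutation p = 0.4, adjusted 0.505). For each of the first 3, the exact two-sided permutation test gave p = 0.1, the smallest p that 3 libraries against 3 allow, and 0.171 after Benjamini-Hochberg adjustment over the 24 ratio tests made. Library 2 of WT LPS also had the highest Nlrc3 (4.39 CPM) and the lowest Nos2 (831 CPM) of its group.

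**Figure D2:**
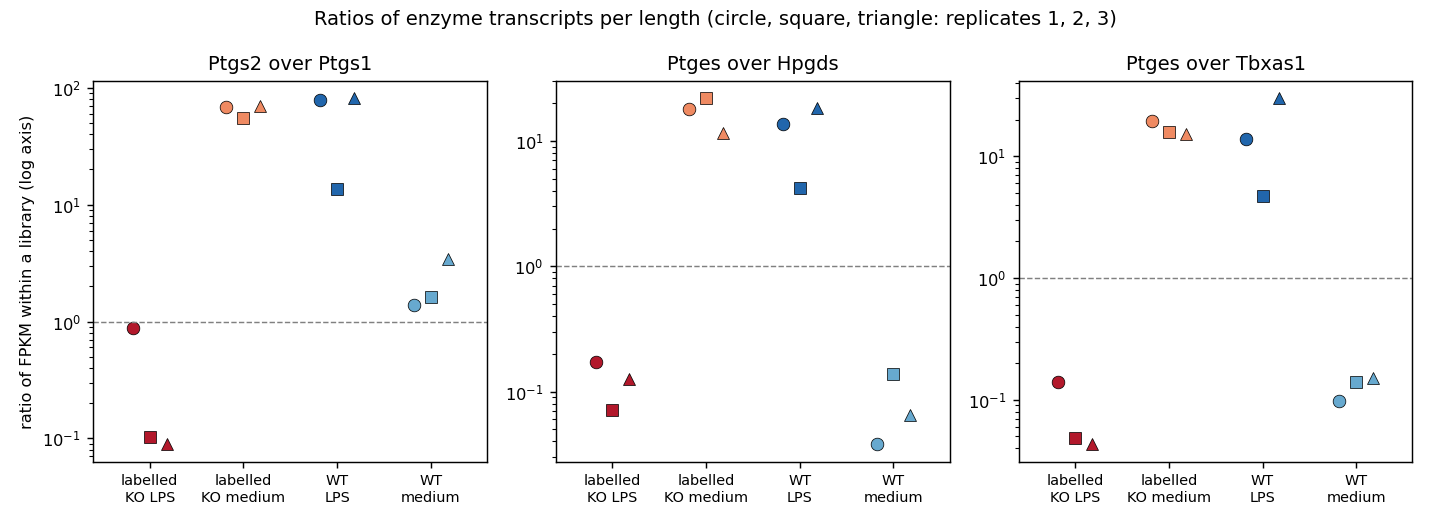
Ratios of the FPKM of Ptgs2 to Ptgs1, Ptges to Hpgds and Ptges to Tbxas1 on log axes, with a point for each of 12 libraries and a dashed line at a ratio of 1. WT LPS libraries are above WT medium libraries in all 3 ratios, and the libraries labelled KO LPS (Ptgs2 to Ptgs1 of 0.0888 to 0.878) are the lowest in the first.

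Per length, the order of the 10 genes differed between the WT groups. In WT LPS libraries Ptgs2 led with 137 ± 94.4 FPKM (SD, n = 3), followed by Ptges with 101 ± 47.4 and Alox5ap with 62.9 ± 12.6 FPKM. Neither neighbouring pair of those 3 was separated beyond its spread, while Alox5ap lay above Pla2g4a (17.5 ± 6.45 FPKM) without overlap. In WT medium libraries Alox5ap led with 172 ± 30.6 FPKM and did not overlap Hpgds, which followed with 36.2 ± 15.5 FPKM. Hpgds overlapped Ptgs2 (30.3 ± 30.7 FPKM), Ptgs2 overlapped Tbxas1 (18.3 ± 0.760 FPKM) and Tbxas1 overlapped Ptgs1 (12.3 ± 7.46 FPKM). Ptges was eighth of the 10 in WT medium, with 2.40 ± 0.604 FPKM. Alox15 was last in both groups, with 0.399 ± 0.465 FPKM in WT LPS and 0.231 ± 0.0588 FPKM in WT medium libraries. Of the summed FPKM of the 10 genes, Alox5ap made up 10.2% to 31.6% in WT LPS libraries and 53.4% to 76.6% in WT medium libraries, and Ptges 25.8% to 32.3% in WT LPS libraries and 0.711% to 1.00% in WT medium libraries.

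The other genes of the pathway, 85 in 8 lists, gave 61 that could be tested, of which 8 were higher and 8 lower in WT LPS libraries, where 11.9% of all genes were called higher and 6.46% lower. Among 15 tested genes of arachidonate release, 2 rose and 3 fell, with a median log2 difference of -0.28. Pla2g16, a phospholipase A, rose by 3.91 ± 0.42 on the log2 scale (adjusted p 0.000139), with 119, 95.9 and 129 CPM in WT LPS libraries and 14.8, 11.4 and 8.53 CPM in WT medium libraries. Pla2g4c, the gamma form of the cytosolic phospholipase, rose by 3.58 ± 0.85 (0.0123) at low levels of 1.79 to 5.68 CPM in WT LPS and 0.366 to 0.611 CPM in WT medium libraries; without WT medium library 1 or 3 the adjusted p was 0.0575 and 0.0585. Mgll, the monoacylglycerol lipase, fell by 2.65 ± 0.59 on the log2 scale (0.00885), and the other 2 that fell were Daglb and Pla2g15, named after their values were seen. Among 9 tested genes of reacylation, which returns arachidonate to lipids, 3 rose and 2 fell. The acyl-CoA synthetases Acsl1 (log2 difference 4.09 ± 0.39, adjusted p 7.47e-05) and Acsl5 (1.39 ± 0.27, 0.00411) rose with the acyltransferase Lpcat2 (1.82 ± 0.37, 0.00548), and Acsl3 and Lpcat1, likewise named after their values were seen, fell.

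The lists of other synthases, breakdown, transport and receptors are read against the same 18.3% of all genes called. Of 7 other prostanoid synthases 1 fell, Fam213b, a prostaglandin F synthase, with a log2 difference of -1.55 ± 0.36 (adjusted p 0.0118). The list of leukotriene enzymes had 1 lower of 9 (Dpep2, a symbol that stands on more than 1 identifier), the list of breakdown and transport 1 lower of 10, and the single lipoxygenase tested did not pass. The lower gene of breakdown, Ptgr2, a prostaglandin reductase, differed by -1.20 ± 0.34 (0.0287), and its call was lost without WT LPS library 1 (0.1002) or 3 (0.128), WT medium library 1 (0.106) or 3 (0.0957), and in a fit of the WT groups alone (0.0942). Among 5 prostanoid receptors 1 rose, Ptgir, the prostacyclin receptor (1.41 ± 0.34, 0.0142), and its call was lost without WT LPS library 3 (0.0816) or WT medium library 1 (0.0594), with library size alone (0.112) and with the WT groups alone (0.0676). Among 5 receptors for leukotrienes and lipoxins 2 rose: Fpr2, a formyl peptide and lipoxin receptor, with 455, 320 and 714 CPM in WT LPS and 27.7, 24.5 and 29.9 CPM in WT medium libraries (log2 difference 4.82 ± 0.40, adjusted p 3.2e-05), and Cysltr2, a receptor for cysteinyl leukotrienes (2.19 ± 0.36, 0.00177). The median log2 difference of these 5 receptors was 1.75, against -0.06 over all genes.

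**Figure D3:**
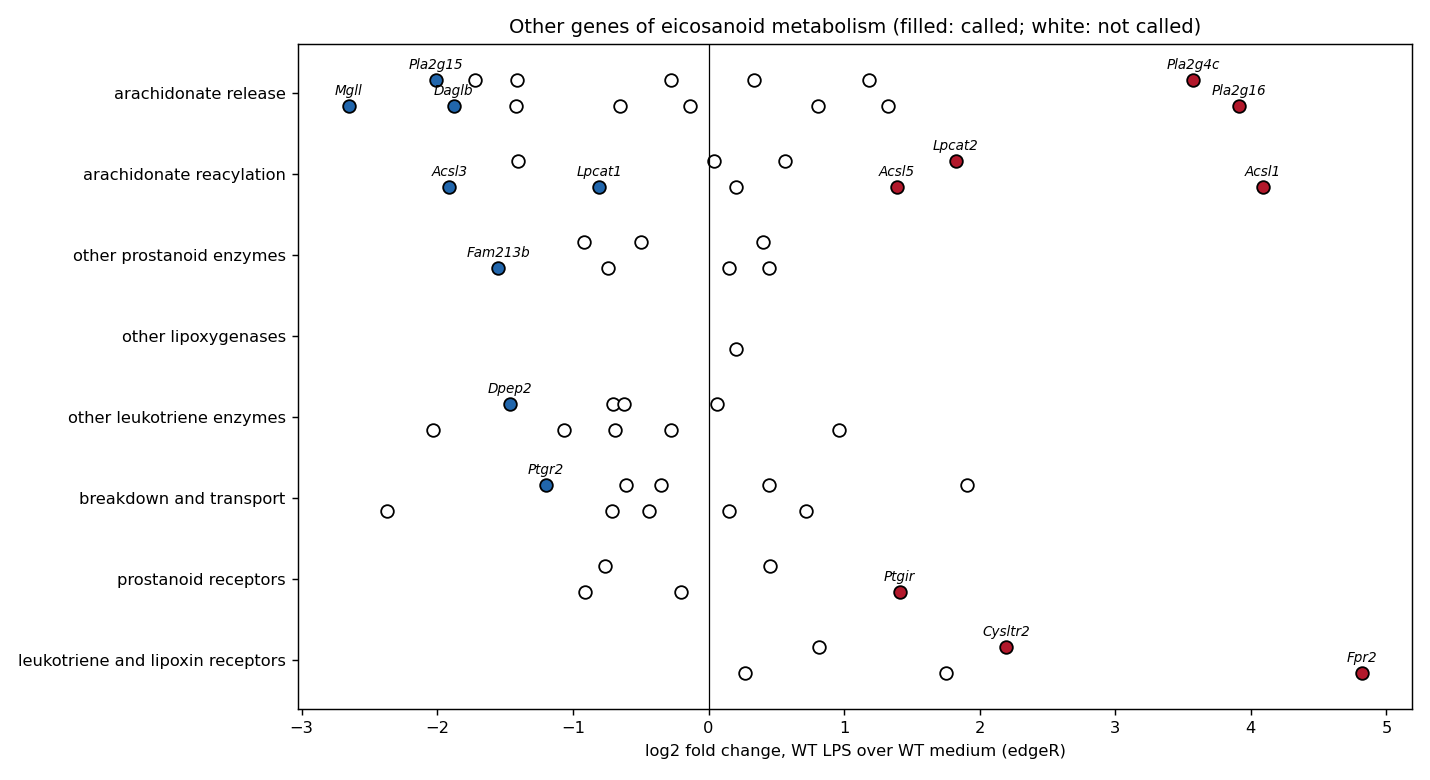
Log2 fold change of WT LPS over WT medium libraries (edgeR) for the 61 tested genes of 8 lists of other pathway genes, a point per gene, filled and named where the gene was called higher (red) or lower (blue). Fpr2 (4.82) and Acsl1 (4.09) lie farthest to the right, and Mgll (-2.65) farthest to the left among called genes.

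Of the marker genes, 4 passed the test between the WT groups: 2 of 9 neutrophil markers (S100a8 and Camp), 1 of 7 stromal markers (Pdgfrb) and 1 of 8 macrophage markers (Fcgr1) were higher in WT LPS libraries. Neutrophil markers summed to 1005 to 4391 CPM in WT LPS and 894 to 1335 CPM in WT medium libraries, and stromal markers to 38.8 to 266 CPM in WT LPS and 48.8 to 121 CPM in WT medium libraries. Their part in the results for the 10 genes was not tested.

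The genes whose pattern over the 12 libraries was nearest to that of a member were found by the root mean square of the difference of centred log2(CPM + 0.5) values, with 13772 genes compared. For Ptgs2 they were Il1b (0.72), Inhba (0.80) and Clec4e (0.85), and for Ptges Lhx2 (0.46), Gbp3 (0.47) and Slc28a2 (0.49). For Hpgds they were Akap11 (0.21), Ccdc47 (0.21) and Zfp420 (0.22), and for Alox5 Acap1 (0.25), Gapt (0.34) and Cdc20 (0.35). The points share libraries and scaling, and the list describes likeness alone.

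The libraries labelled KO LPS showed the reverse arrangement. Against those labelled KO medium, 8 of the 10 genes passed the test, where 30.4% of all genes did. Pla2g4a, Ptgs2 and Ptges were lower (3 of 10, with 15.3% of all genes called lower), and Ptgs1, Tbxas1, Alox5, Alox5ap and Alox15 were higher (5 of 10, with 15.1% called higher). The median log2 difference was 0.74 over the 10 genes and 0.04 over all genes. Pla2g4a had 30.6, 10.3 and 5.46 CPM in libraries labelled KO LPS, against 79.4, 65.7 and 131 CPM in those labelled KO medium (log2 difference -3.28 ± 0.57, adjusted p 0.00165). Ptgs2 had 37.1, 10.1 and 10.4 CPM in libraries labelled KO LPS, against 366, 492 and 1052 CPM in those labelled KO medium (-5.75 ± 0.99, 0.00149). Ptges had 12.6, 5.18 and 4.93 CPM in libraries labelled KO LPS, against 432, 416 and 408 CPM in those labelled KO medium (-6.53 ± 0.56, 2.81e-05). None of these 3 genes overlapped between the groups in CPM by library total, and the share of all genes without overlap was not counted. Only 1 of the 10 genes overlapped, Alox15, so Hpgds and Ltc4s, which did not pass, were also without overlap. For Pla2g4a, Ptgs2 and Ptges, KO LPS library 1 was the highest of its group, and without it the log2 differences were -4.27, -6.67 and -7.13, in that order.

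Ptgs1 had 35.8, 83.7 and 99.8 CPM in libraries labelled KO LPS, against 4.54, 7.51 and 12.9 CPM in those labelled KO medium (log2 difference 2.42 ± 0.51, adjusted p 0.00467). Tbxas1 had 208, 249 and 266 CPM in libraries labelled KO LPS, against 50.9, 60.9 and 61.3 CPM in those labelled KO medium (1.32 ± 0.30, 0.00641). Both genes were higher in each KO LPS library than in any KO medium library. Hpgds had 119, 119 and 63.9 CPM in libraries labelled KO LPS, against 39.3, 31.1 and 57.6 CPM in those labelled KO medium, and did not pass the test (0.51 ± 0.37, 0.316); scaling by library size alone gave Hpgds a log2 difference of 1.24 and an adjusted p of 0.0415.

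In the leukotriene branch, Alox5 had 11.6, 22.9 and 34.5 CPM in libraries labelled KO LPS, against 1.60, 1.63 and 6.13 CPM in those labelled KO medium (log2 difference 2.18 ± 0.58, adjusted p 0.0155). Without KO LPS library 3 or KO medium library 1 or 2 the adjusted p of Alox5 was 0.0653, 0.0626 and 0.0583, and without KO medium library 3 its log2 difference was 2.99. Alox5ap had 348, 272 and 359 CPM in libraries labelled KO LPS, against 105, 95.8 and 98.1 CPM in those labelled KO medium (0.97 ± 0.27, 0.0178). Its call ended without KO LPS library 3 (0.0597) or KO medium library 2 (0.0511) or 3 (0.0615). Alox15 had 5, 57 and 139 counts in libraries labelled KO LPS, against 0, 2 and 5 counts in those labelled KO medium, at or near the floor of 3 counts. It passed at an adjusted p of 0.0487 (log2 difference 3.78 ± 1.33), but the adjusted p was above the threshold in 11 alternatives. Among these were each fit without 1 KO library except KO LPS library 1, with adjusted p from 0.0697 to 0.187, and the fits without WT LPS library 2 (0.0542) or WT medium library 1, 2 or 3 (0.0618, 0.0508 and 0.0630). The log2 difference of Alox15 was 2.72 without KO LPS library 3, 3.15 without KO medium library 1 and 4.85 without KO medium library 3. Ltc4s had 3.03, 3.66 and 2.70 CPM in libraries labelled KO LPS, against 2.60, 1.77 and 0.607 CPM in those labelled KO medium, without passing (0.13 ± 0.81, 0.917).

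Among the libraries labelled KO LPS, Ptgs1, Tbxas1, Alox5 and Alox15 were lowest in library 1 and highest in library 3. The other members did not follow that order. Pla2g4a, Ptgs2 and Ptges were highest in library 1. Hpgds (119, 119 and 63.9 CPM) and Ltc4s (3.03, 3.66 and 2.70 CPM) were lowest in library 3, and Alox5ap (348, 272 and 359 CPM) in library 2. Over the same libraries 1, 2 and 3, the 10 markers of mast cells and basophils summed to 6.37, 142 and 308 CPM, the 6 platelet markers to 177, 575 and 761 CPM, the 10 neutrophil markers to 1211, 5718 and 6966 CPM, and the 5 lymphocyte markers to 5.74, 35.5 and 33.8 CPM. The 6 eosinophil markers summed to 27.3, 84.8 and 85.6 CPM. In libraries labelled KO medium these sums were at most 20.4, 190, 3129, 2.83 and 38.5 CPM, in that order. In this comparison 2 of 6 mast cell and basophil, 3 of 5 platelet, 3 of 9 neutrophil and 1 of 5 lymphocyte markers were called higher in libraries labelled KO LPS, and none of 5 eosinophil markers was called. Of the macrophage markers, Csf1r was higher (log2 difference 1.16) and Fcgr1 (-2.16) and Cd14 (-1.78) were lower there, and of 7 stromal markers Pdgfrb was lower (-2.19). Their part in the results was not tested.

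**Figure D4:**
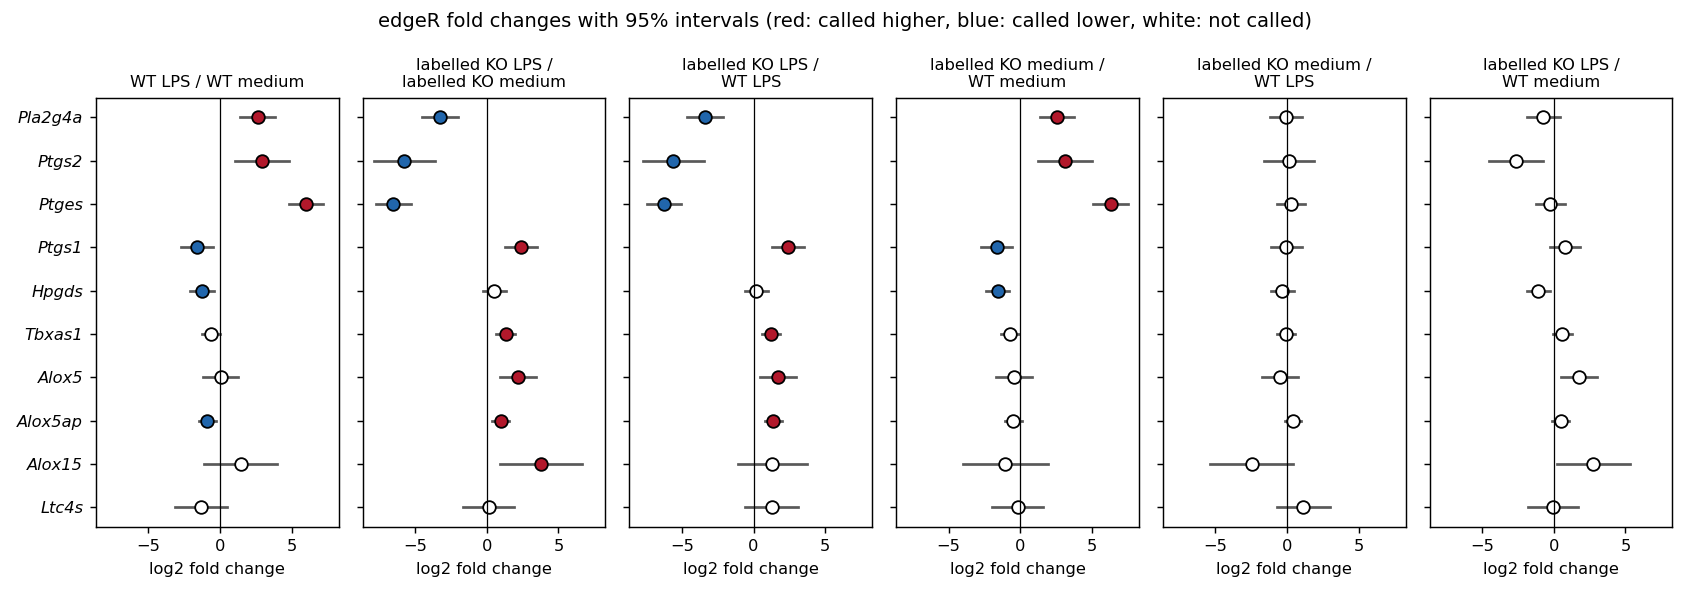
Log2 fold change of each of the 10 genes with its 95% interval in 6 comparisons, from the edgeR fit of 12 libraries; red points were called higher, blue points called lower and white points not called. Ptges and Pla2g4a are above 0 for LPS in WT (6.01 and 2.64) and below 0 for LPS in libraries labelled KO (-6.53 and -3.28).

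Under LPS, the comparison that the title of the series names, 7 of the 10 genes differed between libraries labelled KO LPS and WT LPS, where 24.1% of all genes did; 4 were higher and 3 lower, with 10.4% of all genes called higher and 13.7% lower. Pla2g4a (log2 difference -3.37 ± 0.57), Ptgs2 (-5.60 ± 0.98) and Ptges (-6.25 ± 0.56) were lower in libraries labelled KO LPS, at adjusted p of 0.00188, 0.00214 and 3.75e-05. Ptgs1 (2.38 ± 0.51, adjusted p 0.00647), Tbxas1 (1.22 ± 0.30, 0.0118), Alox5 (1.71 ± 0.57, 0.0471) and Alox5ap (1.37 ± 0.27, 0.00404) were higher. The median log2 difference was 1.24 over the 10 genes and 0.06 over all genes. The Tbxas1 call was lost without WT LPS library 1 (0.0634) or 3 (0.0747) and with the 2 groups alone (0.0619). The Alox5 call was lost in 10 alternatives, among them the fits without KO LPS library 2 (0.103) or 3 (0.177), KO medium library 1 (0.0510), WT LPS library 1 (0.133) or 2 (0.115) or WT medium library 1 (0.0575) or 3 (0.0627). Without KO LPS library 1 the log2 differences were -4.36 for Pla2g4a, -6.53 for Ptgs2 and -6.85 for Ptges, and without WT LPS library 3 that of Ptgs2 was -4.95. Hpgds (0.19 ± 0.37), Alox15 (1.302 ± 1.107) and Ltc4s (1.27 ± 0.84) did not pass, with adjusted p of 0.750, 0.423 and 0.295; Ltc4s had 0.0335 without WT LPS library 1. In this comparison 3 of 9 neutrophil, 3 of 5 platelet and 1 of 5 lymphocyte markers were higher and 3 of 7 stromal markers lower in libraries labelled KO LPS, as were 1 macrophage marker higher (Csf1r) and 2 lower (Fcgr1 and Cd14), and their part was not tested.

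In medium, 5 of the 10 genes differed between libraries labelled KO medium and WT medium, where 26.3% of all genes did; 3 were higher and 2 lower, with 14.0% of all genes called higher and 12.3% lower. Pla2g4a (log2 difference 2.55 ± 0.55, adjusted p 0.00604), Ptgs2 (3.10 ± 0.87, 0.0216) and Ptges (6.29 ± 0.56, 4.19e-05) were higher in libraries labelled KO medium, and Ptgs1 (-1.65 ± 0.50, 0.0303) and Hpgds (-1.59 ± 0.38, 0.00995) were lower. The Ptgs2 call was lost without KO medium library 3 (0.0673) or WT medium library 1 (0.0836), with library size alone (0.0510) and with a term for Xist (0.199), and without WT medium library 3 its log2 difference was 4.19. The Ptgs1 call was lost without KO medium library 1 (0.0984) or 2 (0.0729) or WT medium library 1 (0.0830) or 3 (0.120), with the 2 groups alone (0.0529) and with a term for Xist (0.206). Tbxas1 (-0.71 ± 0.29), Alox5 (-0.44 ± 0.57), Alox5ap (-0.49 ± 0.26), Alox15 (-1.04 ± 1.37) and Ltc4s (-0.19 ± 0.81) did not pass, at adjusted p from 0.0929 to 0.884. Scaling by library size alone added Tbxas1 (0.00512) and Alox5ap (0.00221), and leaving out WT LPS library 2 added Tbxas1 (0.0282). In this comparison 2 of 9 neutrophil markers (S100a8 and Camp) and 1 of 7 stromal markers (Pdgfrb) were higher in libraries labelled KO medium, and of 8 macrophage markers Fcgr1 and Cd14 were higher and Lyz2 lower; their part was not tested.

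Side by side, the libraries labelled KO medium and the WT LPS libraries overlapped in each of the 10 genes. The share of all genes that overlapped was not counted, so this is not shown to be particular to the 10. No gene of the 13773 was called between them (0.0%) with edgeR, and 0 with DESeq2, while 270 genes had an unadjusted p under 0.05, none of them among the 10. The log2 difference was 0.28 ± 0.44 for Ptges (95% interval -0.68 to 1.24), 0.15 ± 0.80 for Ptgs2 (-1.60 to 1.89), -0.08 ± 0.52 for Pla2g4a (-1.22 to 1.06) and -0.04 ± 0.49 for Ptgs1 (-1.11 to 1.03). The wide intervals do not show that the groups were alike. The Ptgs2 to Ptgs1 ratio was 68.4, 55.6 and 69.3 in libraries labelled KO medium, against 79.0, 13.6 and 81.2 in WT LPS libraries. Ptges to Hpgds was 18.0, 21.9 and 11.6 in libraries labelled KO medium, against 13.7, 4.18 and 18.4 in WT LPS libraries.

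Between the libraries labelled KO LPS and WT medium, no gene was called with edgeR (0.0% of 13773), while 1135 had an unadjusted p under 0.05 and DESeq2 called 41. Among the 10 genes, 4 had an unadjusted p under 0.05: Ptgs2 (log2 difference -2.65 ± 0.86, adjusted p 0.552), Hpgds (-1.07 ± 0.37, 0.567), Alox5 (1.74 ± 0.57, 0.552) and Alox15 (2.74 ± 1.17, 0.595). Ptgs2 was called without the filter on low counts (0.0106). Alox5 had 11.6, 22.9 and 34.5 CPM in libraries labelled KO LPS, against 5.53, 7.41 and 8.71 CPM in WT medium libraries. Tbxas1 had 208, 249 and 266 CPM in the former, against 160, 165 and 174 CPM in the latter. Neither gene overlapped, and the share of all genes without overlap was not counted. The Ptgs2 to Ptgs1 ratio was 0.878, 0.102 and 0.0888 in libraries labelled KO LPS, against 1.39, 1.62 and 3.43 in WT medium libraries, without overlap. Alox5ap to Alox5 was 86.7, 34.4 and 30.1, against 102, 108 and 87.5, also without overlap. For both, the exact two-sided permutation test gave p = 0.1, the smallest possible, and 0.171 after adjustment. Ptges to Hpgds and Ptges to Tbxas1 overlapped.

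The difference between the 2 LPS effects was itself tested, as LPS against medium in libraries labelled KO minus LPS against medium in WT. It passed for 8 of the 10 genes, where 41.1% of all genes passed: 5 were higher (20.5% of all genes) and 3 lower (20.6%). The median log2 value was 1.81 over the 10 genes and 0.11 over all genes. Since Nlrc3 (in libraries labelled KO LPS) and Nos2 (in both groups labelled KO) go against the labels, this difference cannot be told apart from the labelling.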

How the data were processed

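Counts and FPKM of 12 libraries were used. The authors deposited raw counts, whole numbers of reads for each gene identifier, with no normalization. The deposited FPKM table holds the authors' values per kilobase of gene and library total; they equalled counts scaled by library total and by the gene's exon length within 0.05% over 6425 genes, so the tables are 1 measurement. The build was mm10 according to the submitters' processing notes, and for the aligner, counter, annotation and strand option "not given in the sources used here" applies. Per the labels' protocols there were a TruSeq and a KAPA Stranded kit, and which kit made which library is not known.

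Groups followed the labels. The count model was edgeR 4.0.16 in R 4.3.3 (glmQLFit and glmQLFTest, TMM factors 0.702 to 1.46, filterByExpr leaving 13773 genes, 1 mean for each of the 4 groups), with Benjamini-Hochberg adjustment over all genes and calls at an adjusted p under 0.05. The script was tested on simulated data. SEs came from the F statistic, and errors beside log2 differences are SEs. Overlap beside CPM values was judged on CPM by library total, without TMM factors, and for the 10 genes alone. The share of all genes without overlap is therefore not known for any comparison. Alternatives were RLE factors, library size alone, DESeq2 1.42.0, no filter, the 2 groups alone, a replicate block, a term for Xist (at or above 20 CPM) and leaving out each library. Named genes were the 10, Nlrc3, Nos2, at most 3 called genes with the smallest p per pathway list in LPS against medium in WT, and the 3 nearest in pattern for 4 members. Other called genes of the pathway lists, and the markers Pdgfrb, Fcgr1, Cd14, Csf1r, Lyz2, S100a8, Camp, Mmp8, Prg2, Epx, Siglecf and Ccr3, were named after their values were seen. Members, lists, comparisons and motifs were chosen with earlier results of these data known. Positions came from GENCODE M21 and sequences from RefSeq (GRCm38.p6). Floors cover counting error alone.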

Additional observations from a re-analysis of the deposited data

Results flagged for a closer look

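The effect of LPS differed between the genotypes as labelled for 8 of the 10 genes, where 41.1% of all genes passed the same test. The test was the interaction term of the edgeR fit (the log2 difference of LPS against medium in libraries labelled KO minus that in WT). The values rest on the labels of the KO libraries, which Nlrc3 (in libraries labelled KO LPS) and Nos2 (in both groups labelled KO) go against. The difference was -12.5 ± 0.787 for Ptges (adjusted p 7.93e-07), -8.71 ± 1.303 for Ptgs2 (0.000284) and -5.92 ± 0.80 for Pla2g4a (0.000141); each of these 3 was lower in libraries labelled KO LPS than in those labelled KO medium, and higher in WT LPS than in WT medium. The opposite sign was found for Ptgs1 (4.02 ± 0.71, 0.000881), Alox5 (2.15 ± 0.80, 0.0494), Tbxas1 (1.93 ± 0.42, 0.00309), Alox5ap (1.85 ± 0.38, 0.00215) and Hpgds (1.77 ± 0.53, 0.0182). The Alox5 value lost its call in 11 alternatives, among them the fits without KO LPS library 2 (0.0805) or 3 (0.124), KO medium library 1 (0.0961) or 2 (0.0906), WT LPS library 1 (0.0861) or 2 (0.0923) or WT medium library 1 (0.0547), 2 (0.0644) or 3 (0.0840). The Hpgds value lost it with a term for Xist (0.0561). Without KO LPS library 1 the difference was -13.14 for Ptges, -9.63 for Ptgs2 and -6.91 for Pla2g4a. That of Ptgs2 was -7.99 without WT LPS library 3 and -9.79 without WT medium library 3, and that of Alox5 2.75 without WT LPS library 3 and 3.02 without KO medium library 3. Alox15 (2.34 ± 1.76, 0.311) and Ltc4s (1.46 ± 1.17, 0.342) did not pass. For Ltc4s the value was 3.20 without WT LPS library 1 (adjusted p 0.0316), 0.87 without WT LPS library 2 (0.485) and 2.90 with scaling by library size alone (0.0382).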

How the results depend on the processing

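Of 1526 values for the 10 genes and the other named pathway genes under alternatives, 1389 kept direction and side of the threshold, 97 lost the call, 11 gained one and 29 changed sign. No called value of the 10 genes changed sign. For LPS in WT, the 6 calls among the 10 genes became 2 with the WT groups alone and 2 to 6 when 1 library was left out. For LPS in libraries labelled KO the 8 became 5 to 8 with 1 library left out, and for KO against WT in medium the 5 became 3 with the Xist term and 3 to 6 with 1 library left out. For KO LPS against WT medium the 0 became 1 without the filter.

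Over all genes, scaling by library size alone gave 4233 calls for LPS in WT (main count 2526), 6494 for LPS in libraries labelled KO (4186) and 6644 for KO against WT in medium (3620). The 2 groups alone gave 1590 for LPS in WT and 2185 for KO against WT in LPS (3324). Leaving out 1 library gave 1384 to 3042, 2543 to 5095, 1810 to 4093 and 2196 to 4735 calls for LPS in WT, LPS in KO, KO against WT in LPS and KO against WT in medium. For KO medium against WT LPS the 0 calls became 3 without the filter and 0 to 2 with 1 library left out. For KO LPS against WT medium they became 99 without the filter, 41 with DESeq2 and 0 to 245 with 1 library left out. Library size alone also moved the share of calls that were higher to 24.4% for LPS in WT (64.8% with TMM), 81.9% for LPS in KO (49.7%), 74.5% for KO against WT in LPS (43.2%), 16.1% for KO against WT in medium (53.4%) and 81.1% for the interaction (49.9%). The cause was not tested.

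Sign changes concerned values that had not passed. Alox5 for LPS in WT was -0.56 with library size alone, -0.069 without the filter, -0.14 with the replicate block, -0.027 with the WT groups alone and -0.57 to 0.26 with 1 library left out. For KO medium against WT LPS, the Xist term gave 0.26 for Ptgs1 and 0.049 for Tbxas1, and for KO LPS against WT medium 0.082 for Ltc4s. With 1 library left out, the other values that changed sign ran as follows: Alox15 for LPS in WT -0.25 to 1.92, Ltc4s for LPS in KO -0.29 to 0.62, Hpgds for KO against WT in LPS -0.050 to 0.51 and Ltc4s for KO against WT in medium -0.74 to 0.17. For KO medium against WT LPS the ranges were -0.41 to 0.23 for Ptgs1, -0.31 to 0.77 for Ptgs2, -0.016 to 0.77 for Ptges, -0.34 to 0.31 for Tbxas1, -1.30 to 0.060 for Alox5 and -0.34 to 0.28 for Pla2g4a. For KO LPS against WT medium they were -0.83 to 0.0043 for Ptges and -0.24 to 0.25 for Ltc4s. Alox15 was not tested in the fits of 2 groups that include the libraries labelled KO medium, where the filter removed it.

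The replicate numbers of the titles did not pair the libraries. Of 18 pairs with the same number, 8 had a correlation of deviations over 0.1 (range -0.63 to 0.57), and in 14 of 36 cases a library correlated best with its own number in another group. The column names of WT LPS library 1 and WT medium library 2 share a number. So do those of WT LPS library 2 and WT medium library 3. Deviations correlated at 0.59 and 0.46 in these pairs, and at 0.48 for WT LPS library 2 with WT medium library 1. A shared animal was not tested, and the fits took all libraries as independent of each other in this respect. With the replicate block 4 of the 10 genes were called for LPS in WT, where Hpgds (adjusted p 0.0725) and Alox5ap (0.0668) lost the call, and 7 for LPS in libraries labelled KO, where Alox15 (0.0809) lost it; it called 2139 genes for LPS in WT. Low counts limit Alox15 and Ltc4s, whose libraries reach the floor of 3 counts.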
